A study of Mus musculus with 2 samples.

Results

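Effector genes of synaptic activity are described here by their chromatin accessibility in the mouse left cerebral cortex. The list names 9 genes, chosen by their GENCODE M21 symbols: Arc, Npas4, Nptx2, Rgs2, Ptgs2, Plk2, Gadd45b, Nr4a1as and Btg2. Of these, 8 matched 1 gene each among 55413 annotated genes on chromosomes 1 to 19, X and Y, and all 8 are among the 21938 protein-coding genes. No gene of the annotation carries the symbol Nr4a1as, so no value is given for it. The samples were 2 DNase-seq libraries, replicates 1 and 2, from left cortex of male B6CASTF1/J mice aged 8 to 10 months. These animals are first-generation hybrids of a laboratory strain and a castaneus strain, and no treatment or second condition was labelled. The libraries are labelled biological replicates. One donor identifier is given for both, with a biosample identifier of its own for each, and it may name the strain rather than an animal. Whether they came from separate animals is not known here, so the spread between them may leave out variation between animals. In DNase-seq, an enzyme, DNase I, cleaves exposed stretches of chromatin, and sequencing locates the cuts.

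Calcium entry at active synapses reaches the nucleus through kinases that act on transcription factors already bound at target genes, among them CREB, SRF with its ETS partners, and MEF2. The first genes induced encode transcription factors such as NPAS4, FOS and EGR proteins, and also proteins that act directly at synapses or in signalling, called effectors. Their mRNAs are short-lived, and several of these genes serve as markers of recently active neurons in cortex.

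Each measure was read in a window that held the gene with 10 kb of flank to its left and right. Accessible sites came from 2 deposited peak lists per library, a stricter and a broader one, and each peak's deposited signal value, whose scaling is not given, is called its strength. Footprints are short protected stretches inside accessible DNA. The authors' FDR table lists short intervals with a false discovery rate under 0.05, and the share of bases it lists is called coverage. The libraries held 40705 and 39508 stricter peaks, 71210 and 72217 broader peaks and 166128 and 174394 footprints, and their FDR tables listed 24.1 and 25.6 Mb. Read totals were not used here. A promoter peak is a stricter peak within 1000 bp of any annotated start. Among markers of cortical cell types, both libraries showed promoter peaks at 4 of 6 excitatory neuron genes (not at Slc17a7 or Neurod2), 0 of 4 inhibitory neuron, 2 of 5 astrocyte, 1 of 5 oligodendrocyte, 0 of 4 microglia and 0 of 4 endothelial genes. They also did so at 1 of 2 choroid plexus genes and 0 of 3 genes of other organs. The tissue is a mixture of cells, so fewer cells with an open site and less opening per cell cannot be told apart. Every window of the 8 genes held FDR-table intervals in both libraries, and 2 windows reached another annotated gene, AC124502.5 beside Npas4 and Ptgs2os beside Ptgs2.

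A promoter peak was called in replicate 1 and also in replicate 2 at 8 of 8 genes, against 54.9% of protein-coding genes. The median strength of their strongest promoter peaks was 4.00 in replicate 1 and 4.32 in replicate 2, against 2.66 and 2.32 over protein-coding genes with such a peak. The order by mean strength was Gadd45b, Arc, Plk2, Rgs2, Btg2, Npas4, Nptx2 and Ptgs2. Gadd45b lay above Arc in both libraries. The ranges of Arc and Plk2 overlapped, as did those of Plk2 and Rgs2 and those of Npas4 and Nptx2. Rgs2 lay just above Btg2 in replicate 2, at 4.33 against 4.31. Btg2 lay above Npas4 in both libraries, at 3.70 and 4.31 against 2.17 and 3.02. Ptgs2 lay below Nptx2, at 0.910 and 0.824 against 2.24 and 2.58.

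**Figure D1:**
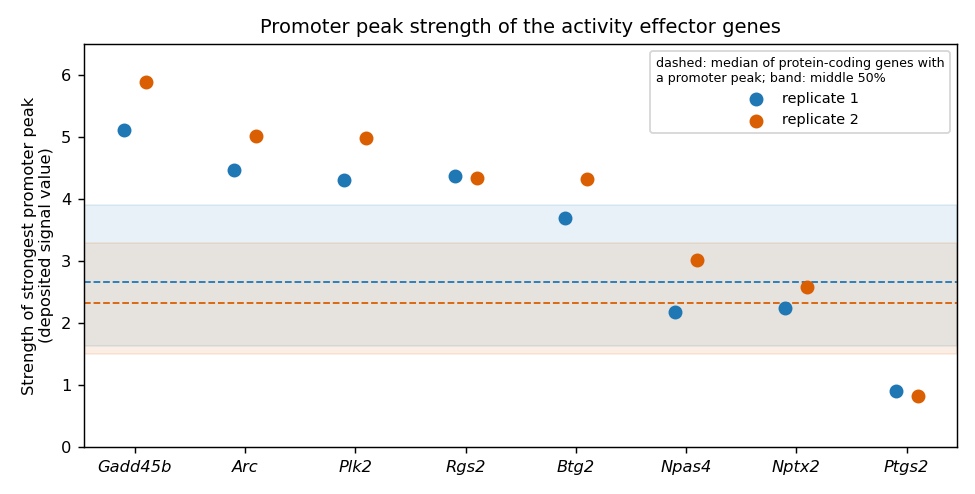
Strength of the strongest promoter peak (vertical axis, deposited signal value) of each gene, with 1 point per library, and the median (dashed) and middle 50% (band) of protein-coding genes with a promoter peak in that library. Both points of Gadd45b, Arc, Plk2 and Rgs2 lie above the bands, and both points of Ptgs2 lie below them, at 0.910 and 0.824.

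Stricter peaks of both libraries, joined where they overlapped or abutted, gave 39 sites in the 8 windows. Of these, 15 were in both libraries, 3 in replicate 1 and 21 in replicate 2 alone. The strongest promoter site of every gene was shared. Of 20 sites within 1000 bp of a start of their own gene, 10 were shared, 2 were in replicate 1 alone and 8 in replicate 2 alone. In gene bodies 2 of 14 sites were shared and 11 were in replicate 2 alone, while upstream of the genes 12 of 20 were shared. Those 11 all lay in Arc, Npas4 and Nptx2. Sharing by place was not counted over all genes, so these counts describe single genes. The sites of replicate 2 alone lay at Arc (9), Npas4 (7), Nptx2 (4) and Rgs2 (1). Their strength ranged from 0.426 to 2.04 with a median of 0.731, and 7 of the 21 overlapped a broader peak of replicate 1.

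**Figure D2:**
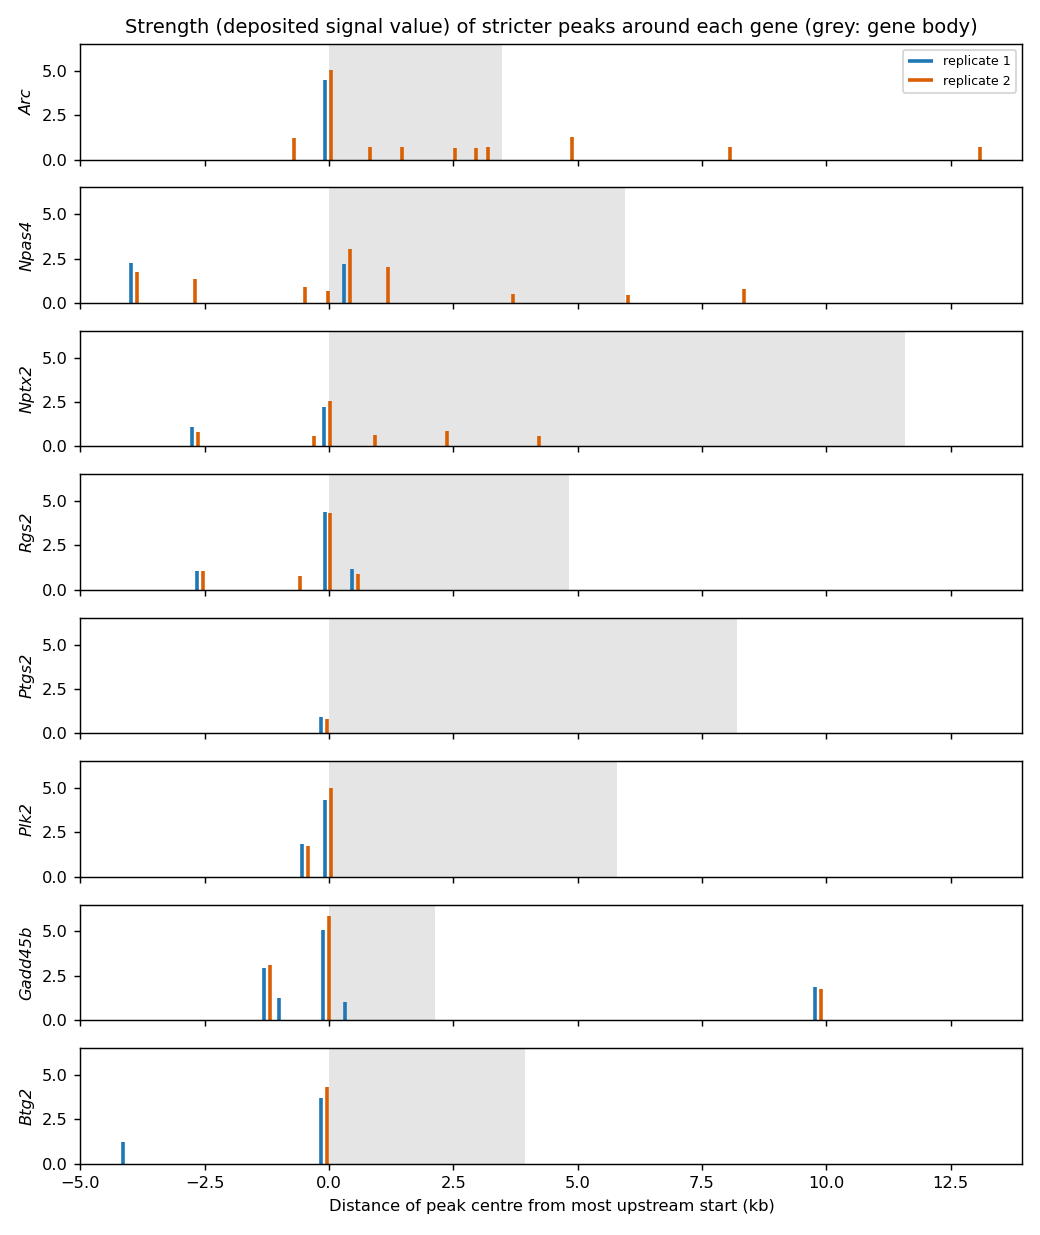
Strength of each site made from stricter peaks (bars, deposited signal value) by the distance of its centre from the gene's most upstream start (kb, positive into the gene), in both libraries, with the gene body in grey. Tall bars at the start appear in both libraries, while most low bars inside and beyond Arc, Npas4 and Nptx2 are from replicate 2.

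Npas4 encodes a bHLH-PAS transcription factor that calcium entry induces and that regulates other activity-dependent genes. The gene lies at chr19:4984355-4990316 on the minus strand and has 3 annotated starts. Its window held 2 stricter peaks in replicate 1 and 9 in replicate 2. Its strongest promoter site (chr19:4989821-4990100) lay inside the gene, 355 bp from the most upstream start and 10 bp from the nearest annotated start, with strength 2.17 and 3.02 (2.59 ± 0.600, SD, n = 2). The site next to it in the gene (chr19:4989061-4989300) had strength 2.04 in replicate 2 and only a broader peak of 1.07 in replicate 1. Both libraries also had an intergenic site 3919 bp upstream (chr19:4994141-4994329), at 2.24 and 1.72. That distal site was as strong as the promoter site in replicate 1 and weaker in replicate 2.

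A further Npas4 site 2745 bp upstream (chr19:4992921-4993200), near the start of AC124502.5, was a stricter peak of 1.32 in replicate 2 and a broader peak of 1.38 in replicate 1. It is shown because it holds a pair of AP-1 matches, the letters that FOS and JUN dimers recognise. The stretch free of annotated exons is chr19:4993114-4993200, minus strand, mm10, with the AP-1 matches in capitals.
Npas4 upstream peak: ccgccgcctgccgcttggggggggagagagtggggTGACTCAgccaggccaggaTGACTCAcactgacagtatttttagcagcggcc
Neither match overlapped a footprint in either library, although footprints covered 14 bases of this stretch in replicate 1 and 16 in replicate 2.

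Arc, whose protein promotes removal of AMPA receptors from synapses, lies at chr15:74669083-74672570 on the minus strand. Its window held 1 stricter peak in replicate 1 and 11 in replicate 2, 4 and 17 broader peaks, and 8 and 37 footprints. The promoter site (chr15:74672441-74672720) was called in both libraries and differed less, with strength 4.46 and 5.01 (4.74 ± 0.385, SD, n = 2). This site, joined from both libraries, held 4 footprints in replicate 1 and 7 in replicate 2. None of the 8 window footprints of replicate 1 had its midpoint in that library's own stricter peak, against 21 of 37 in replicate 2. Among protein-coding genes with a promoter peak, Arc was at the 83.4th percentile of strength in replicate 1 and the 95.2nd in replicate 2. The part of this site before the start, chr15:74672571-74672720, is shown on the minus strand with a match to the EGR pattern GCGNGGGCG in capitals.
Arc promoter: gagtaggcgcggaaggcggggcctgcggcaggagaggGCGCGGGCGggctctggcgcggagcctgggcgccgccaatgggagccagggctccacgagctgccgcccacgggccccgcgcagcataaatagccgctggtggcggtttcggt
Of the 9 bases of that match, footprints covered 7 in replicate 1 and 9 in replicate 2.

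A second Arc site, 761 bp upstream (chr15:74673081-74673580), was made of 2 stricter peaks in replicate 2, the stronger at 1.19, and held a broader peak of 1.66 in replicate 1. Of 8 genes it was the only promoter site with a CArG box, the sequence bound by SRF, and an ETS match (CCGGAAG) lay beside it. The 300 bases from 711 to 1010 bp upstream (chr15:74673281-74673580, minus strand) are shown with both in capitals, the ETS match first and on the other strand.
Arc upstream peak: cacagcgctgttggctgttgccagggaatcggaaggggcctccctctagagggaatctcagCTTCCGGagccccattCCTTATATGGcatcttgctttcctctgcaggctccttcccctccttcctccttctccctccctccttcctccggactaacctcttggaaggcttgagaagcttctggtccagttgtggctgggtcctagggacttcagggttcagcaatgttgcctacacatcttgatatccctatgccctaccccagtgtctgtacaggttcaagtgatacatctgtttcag
In replicate 1 a footprint covered 6 of the 7 ETS bases, and in replicate 2 none did. The CArG box was not covered in either library.

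Another Arc site, farther upstream, was in the broader list of replicate 2 alone, at strength 1.18 (chr15:74679198-74679416, centred 6737 bp from the start). A synaptic activity-responsive element several kilobases upstream of Arc, with sites for CREB, SRF and MEF2, is known from mouse neurons. Whether this peak is that element was not tested. In the bin of 500 bp that holds its centre, coverage was 1.80% in replicate 1 and 38% in replicate 2. The whole site is shown on the minus strand, with the core of the cyclic AMP response element (TGACG, here as CGTCA), a CArG box and an ETS match in capitals, in that order.
Arc distal peak: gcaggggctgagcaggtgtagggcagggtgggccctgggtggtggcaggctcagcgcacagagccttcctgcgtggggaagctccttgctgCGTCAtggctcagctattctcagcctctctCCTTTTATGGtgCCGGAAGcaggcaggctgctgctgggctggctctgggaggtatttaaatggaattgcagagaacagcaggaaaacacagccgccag
For MEF2 only a strict pattern was searched (CTA, a run of A or T, then TAG), and it had no match here. Looser forms of the MEF2 site were not searched. Footprints of replicate 2 covered 14 of its 219 bases and those of replicate 1 none.

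Nptx2 encodes a secreted pentraxin that clusters AMPA receptors on interneurons, and lies at chr5:144545902-144557478. Its window held 2 stricter peaks in replicate 1 and 6 in replicate 2. The promoter site (chr5:144545721-144546000) had strength 2.24 and 2.58 (2.41 ± 0.245, SD, n = 2), near the median of protein-coding genes with a promoter peak. A site 2694 bp upstream (chr5:144543013-144543402), with AP-1 and E-box matches, was shared at 1.12 and 0.787. The other sites lay within 1000 bp of the start or in the gene body as far as 4159 bp from it, and 2 of them overlapped a broader peak of replicate 1, of 0.663 and 0.967.

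Among the signalling genes, Rgs2 encodes an accelerator of the GTPase activity of G proteins of the Gq class (chr1:143999338-144004161, minus strand). Its window held 3 and 4 stricter peaks, and its promoter strength of 4.37 and 4.33 (4.35 ± 0.0256, SD, n = 2) had the smallest SD of the 8 genes. Its distal site 2597 bp upstream had 1.08 and 1.04. Ptgs2, which encodes the inducible cyclooxygenase COX-2, had a single stricter peak in each library (chr1:150099621-150100240). That peak spans the start of the antisense gene Ptgs2os as well as that of Ptgs2, so its strength of 0.910 and 0.824 cannot be assigned to either gene. It lay at the 7.59th and 6.66th percentiles of protein-coding genes with a promoter peak.

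Plk2 encodes a kinase that acts in homeostatic weakening of synapses (chr13:110395046-110400844). It had 2 stricter peaks in each library, a promoter site of 4.31 and 4.98 (chr13:110394881-110395160) and a second site 476 bp upstream of 1.83 and 1.76. The promoter is shown because it holds a full cyclic AMP response element (CRE, TGACGTCA), the palindrome bound by CREB, over which both libraries had a footprint. The part before the start is chr13:110394881-110395045, plus strand, with the CRE in capitals.
Plk2 promoter: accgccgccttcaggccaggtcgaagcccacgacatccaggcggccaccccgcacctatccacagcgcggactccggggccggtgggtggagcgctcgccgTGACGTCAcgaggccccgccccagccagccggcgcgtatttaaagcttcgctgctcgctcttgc
Footprints covered 8 of the 8 CRE bases in replicate 1 and in replicate 2.

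Gadd45b encodes a stress-inducible protein implicated in DNA demethylation after neuronal activity (chr10:80930073-80932204). It had the strongest promoter peak of the 8 genes, at 5.11 and 5.89 (5.50 ± 0.552, SD, n = 2), with 5 and 3 stricter peaks in the window. Its upstream site 1252 bp from the start, at 2.94 and 3.12, was the strongest shared distal site of the 8 genes. A site beyond the gene (chr10:80939761-80940052) had 1.87 and 1.75. The promoter before the start, chr10:80929861-80930072, is shown with an E-box, a TATA box and an EGR match on the other strand, in that order, in capitals.
Gadd45b promoter: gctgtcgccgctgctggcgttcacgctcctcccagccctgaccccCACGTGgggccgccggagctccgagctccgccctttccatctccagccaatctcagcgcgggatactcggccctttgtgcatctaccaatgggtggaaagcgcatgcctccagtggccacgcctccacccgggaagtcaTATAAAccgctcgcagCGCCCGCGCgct
Footprints covered the E-box in replicate 1 and not in replicate 2. Of the 6 TATA box bases, 4 were covered in replicate 1 and 6 in replicate 2.

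Btg2 encodes an antiproliferative protein that recruits mRNA deadenylases (chr1:134075170-134079120, minus strand). Its window held 2 stricter peaks in replicate 1 and 1 in replicate 2, and 7 and 2 broader peaks. Its promoter strength was 3.70 and 4.31 (4.01 ± 0.437, SD, n = 2), and a site 4080 bp upstream was a stricter peak of 1.24 in replicate 1 and a broader peak of 1.12 in replicate 2. Its promoter is shown as the second with a full CRE. A window of 300 bp around the strongest promoter peak held this CRE in replicate 1 and not in replicate 2. The 300 bases before the start are chr1:134079121-134079420, minus strand, with the CRE and then an EGR match in capitals.
Btg2 promoter: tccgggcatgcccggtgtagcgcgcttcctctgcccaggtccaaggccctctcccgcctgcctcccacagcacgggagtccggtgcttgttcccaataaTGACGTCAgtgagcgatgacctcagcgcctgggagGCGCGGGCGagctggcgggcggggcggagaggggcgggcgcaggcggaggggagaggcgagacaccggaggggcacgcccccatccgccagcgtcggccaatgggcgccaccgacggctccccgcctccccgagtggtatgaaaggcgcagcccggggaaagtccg
Footprints covered 4 of the 8 CRE bases in replicate 1 and 7 in replicate 2, and none of the EGR match.

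**Figure D3:**
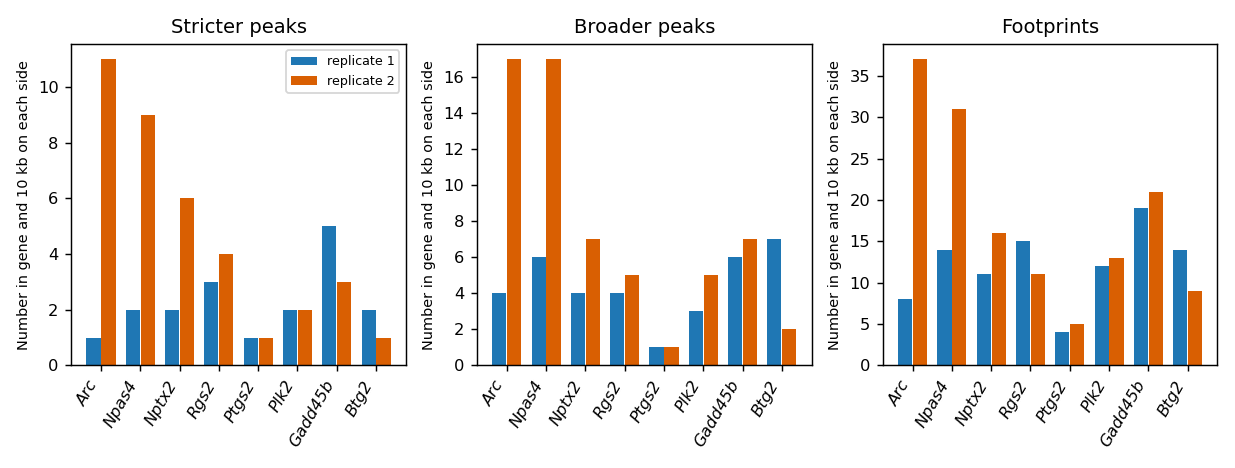
Number of stricter peaks, broader peaks and footprints (vertical axes) in each gene's window, in replicates 1 and 2. Arc and Npas4 have far more of each in replicate 2, while Btg2 has more in replicate 1.

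The libraries were also compared by the coverage of gene bodies. The FDR table covered 7.97% of the Arc gene body in replicate 1 and 80.6% in replicate 2, and 15.2% and 57.0% of that of Npas4. Nptx2 had 3.69% and 11.9%, Plk2 6.28% and 12.7%, and Rgs2 16.4% and 16.9%. Gadd45b had 27.0% and 23.7%, Ptgs2 4.40% and 2.93%, and Btg2 16.8% and 5.82%. Coverage was therefore not shifted one way at all 8 genes. It was higher in replicate 1 at Gadd45b, Ptgs2 and Btg2, and nearly equal at Rgs2. Median coverage over all protein-coding genes was 1.29% in replicate 1 and 1.36% in replicate 2. The share of them higher in either library was not counted.

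Body coverage at least 2-fold higher in replicate 2, among genes with at least 5% in either library, was found at 4 of 7 of these genes (Arc, Npas4, Nptx2 and Plk2), against 9.6% of 4544 protein-coding genes. The reverse was found at 1 of the 7 (Btg2), against 4.53%. This comparison was chosen after the data were seen, so the counts are a description. Some markers of cell types moved on this measure too. The excitatory neuron marker Neurod6 had 11.5% in replicate 1 and 28.9% in replicate 2. The oligodendrocyte marker Olig2 had 53.6% and 0%. Its window held 5 stricter peaks, 13 broader peaks and 18 footprints in replicate 1, and 0 of each in replicate 2. Of the marker lists, coverage of at least 5% in either library was reached by 2 excitatory, 1 inhibitory and 2 oligodendrocyte genes, and Neurod6 and Olig2 were the ones that differed 2-fold. The part of cell types in the values of the 8 genes was not tested. Of 21938 protein-coding genes, 1 had a larger excess of replicate 2 than Arc, in percentage points, and Npas4 was at the 99.9th percentile. With 1000 bp around every start left out, Arc had 0% and 72.8%, Npas4 0% and 43.6%, Plk2 0% and 6.45%, Nptx2 1.85% and 7.88%, and Btg2 3.69% and 0%.

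**Figure D4:**
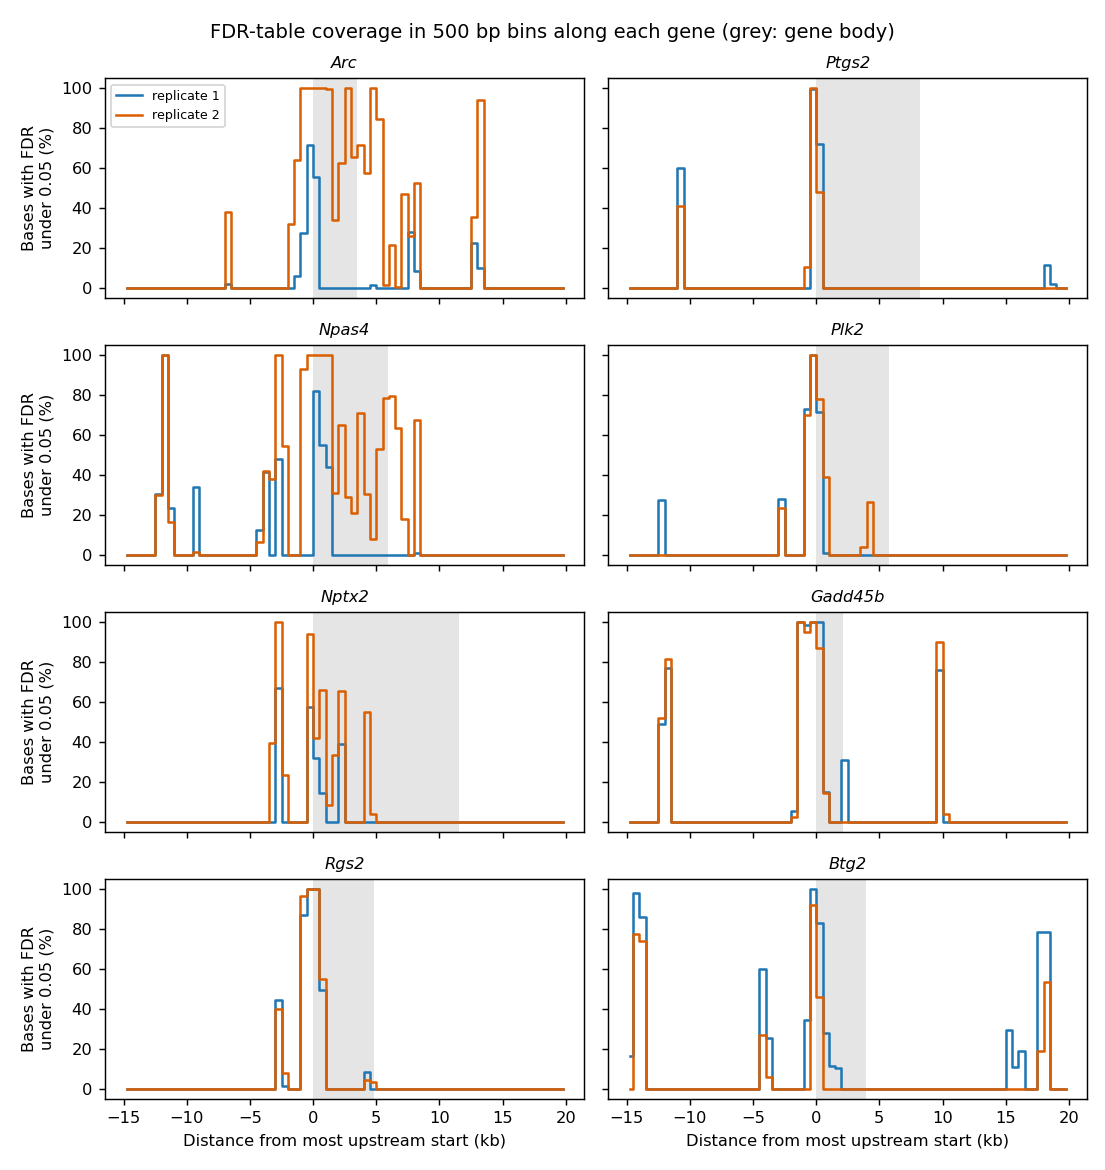
Share of bases listed in the FDR table (vertical axis, %) in bins of 500 bp by distance from the most upstream start (kb), in both libraries, with the gene body in grey. In replicate 2, coverage runs through and past the Arc and Npas4 genes, while in replicate 1 it is low over most of both gene bodies, and the profiles of Rgs2, Ptgs2 and Gadd45b nearly coincide.

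Coverage outside the Arc and Npas4 gene bodies was higher in replicate 2 as well. In the 10 kb downstream of Arc, coverage was 3.48% in replicate 1 and 29.6% in replicate 2, and upstream it was 5.35% and 16.7%. Npas4 had 0.0400% and 11.8% downstream, and 6.79% and 21.8% upstream. Downstream of Nptx2, Rgs2, Ptgs2, Plk2 and Btg2 the table listed no base in either library. The 2 libraries differed by far less over the genome, at 24.1 and 25.6 Mb in all.

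**Figure D5:**
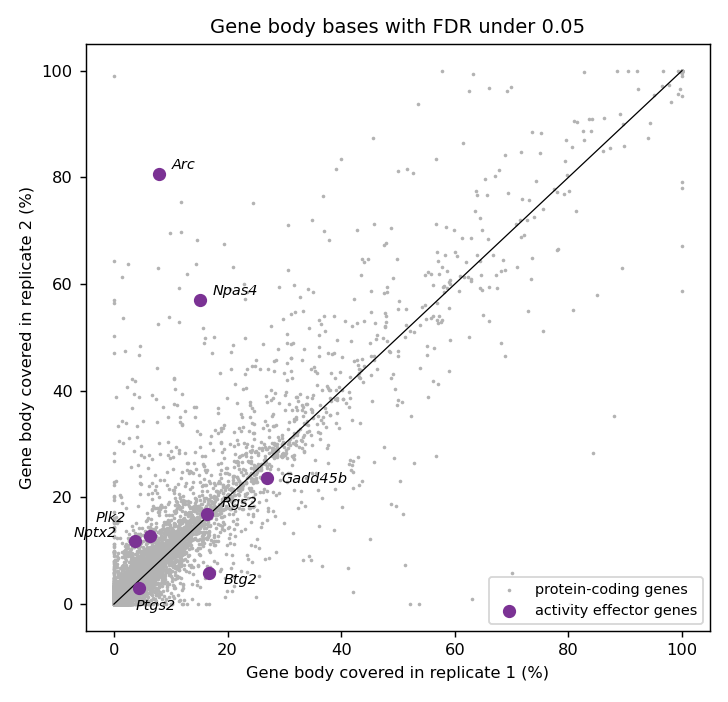
Share of the gene body listed in the FDR table in replicate 1 (horizontal axis, %) and replicate 2 (vertical axis, %) for protein-coding genes (grey) and the 8 genes (purple), with the line of equality. Arc, at 7.97% and 80.6%, and Npas4, at 15.2% and 57.0%, stand well above the line, and Btg2 lies below it.

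Of 18 stricter peaks in the windows in replicate 1, 83.3% overlapped one of replicate 2, against 76.5% of all peaks of replicate 1. Of 37 in replicate 2, 40.5% overlapped one of replicate 1, against 78.4% of all. Footprints in the windows numbered 97 and 143, of which 53.6% and 34.3% overlapped a footprint of the other library, against 46.0% and 43.6% of all footprints. Their median length was 9 bp in both libraries, the same as over all footprints. The windows held a median of 13 and 14.5 footprints, against 7 and 8 per protein-coding gene. The median number of stricter peaks per window was 2 in replicate 1 and 3.5 in replicate 2, against 2 in each library over protein-coding genes. Median density, which also depends on window length, was 0.773 and 1.48 stricter peaks per 10 kb, against 0.304 and 0.295.

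Motif letters were searched on both strands of all promoter peaks of each gene, and the shares below are over the 12042 protein-coding genes whose promoters had peaks in each library. The full CRE was present at 2 of 8 genes (Plk2 and Btg2), against 5.36%. Peaks of both libraries were searched together, and with those of replicate 2 alone the count was 1 of 8. Over the 12042 genes 595 CREs were found. Footprints of both libraries covered 50% or more of the bases of 69.7% of them, as they did for both CREs here. The CRE core TGACG, which overlaps the full site, was present at 6 of 8, against 6016 of 12042. EGR matches were at 5 of 8 (Arc, Btg2, Gadd45b, Nptx2 and Rgs2), against 19.3%. The core TCGTG recognised by NPAS4 was at 5 of 8, against 39.8%, and the GC box (GGGCGG) at 8 of 8, against 78.8%.

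The AP-1 pattern TGANTCA was at 1 of 8 genes (Gadd45b), against 7.62%, the CArG box at 1 (Arc), against 2.05%, and the ETS match at 1 (Arc), against 26.6%. The E-box (CACGTG) was at 2, against 17.1%. The TATA box was searched as TATAAA and was at 1 gene (Gadd45b), against 6.28%. The strict MEF2 pattern and the NR4A pattern (AAAGGTCA) were at none, against 0.548% and 1.23%. The promoter peaks searched were longer at the 8 genes, with a median total of 637 bp against 491 bp. Windows of 300 bp around the strongest promoter peak are equal in length. In them the CRE was at 2 genes in replicate 1 and at 1 (Plk2) in replicate 2, against 4.28% and 4.12%. The EGR pattern was at 5 and 3, against 11.7% and 11.5%. With 8 genes, 1 gene moves such a share greatly, so none is read as a property of the list.

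Other genes induced by neuronal activity, from a list of 37 of which 36 matched, carried promoter peaks of each library in 34 cases and of replicate 1 alone in 2, Inhba and Nrn1. With the broader list the count was 36 of 36, since Inhba and Nrn1 had broader promoter peaks of 1.05 and 1.01 in replicate 2. The windows of the 36 genes held a median of 4 stricter peaks in each library, against 2 and 3.5 at the 8 effector genes. Median promoter strength of the 36 was 2.71 and 2.62 in replicates 1 and 2, below the 4.00 and 4.32 of the 8. The strongest were Jun at 7.05 and 6.01, Per1 at 6.13 and 4.79, and Crem at 5.51 and 4.89. Nrn1, which encodes neuritin, had the lowest mean, at 0.891 in replicate 1 and no stricter promoter peak in replicate 2. Body coverage at least 2-fold higher in replicate 2 was found at 3 of the 28 with at least 5% in either library, close to the 9.6% of protein-coding genes. These were Egr3, an EGR transcription factor (12.5% and 36.2%), Vgf, a secreted neuropeptide precursor (18.7% and 43.4%), and Trib1, a pseudokinase (6.73% and 22.7%). The reverse was found at 2 of the 28, Inhba and Nrn1, against 4.53% of protein-coding genes.

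Paralogues of the 8 genes were accessible at the promoter less uniformly. Of 22 paralogues, 13 (59.1%) carried promoter peaks of each library, 1 of replicate 1 alone (Rgs8) and 8 of neither, close to the 54.9% of protein-coding genes. The 8 were Npas1, Nptx1, Nptxr, Rgs1, Rgs5, Rgs16, Plk5 and Btg4, so that Nptx2 differed in this from its paralogues Nptx1 and Nptxr. In the broader list Nptx1 had promoter peaks of 1.29 in replicate 1 and 1.45 in replicate 2, and Nptxr had one of 1.26 in replicate 1 and none in replicate 2. Rgs5 had broader promoter peaks of 0.426 and 0.380, and in replicate 2 Rgs8 had one of 0.926 and Rgs16 one of 1.10. The count in both libraries was 16 of 22 with the broader list and 9 with the strongest 50% of stricter peaks. The strongest paralogues were Btg1 at 7.00 and 5.41, Tob2 at 4.16 and 4.95, and Plk3 at 4.88 and 4.02. None of the 6 paralogues with at least 5% body coverage in either library differed 2-fold between the libraries. Gadd45g is on the list of other activity-induced genes and on that of paralogues, and was counted in each. The difference between these lists and the 8 genes was not tested.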

How the data were processed

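Deposited notes say that the authors made every file from 1 library's own mm10 alignments. Aligner, peak caller and settings: not given in the sources used here. Peak strength is the deposited signal value of the narrowPeak format. The deposited FDR table holds q-values and lists those under 0.05. The value column of the footprint files is a constant that the authors deposited under no named score and was not used.

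Peaks and footprints were counted by midpoint over GENCODE M21 genes and 10 kb on each side. Overlap meant at least 1 bp. Promoter peaks overlapped 1000 bp on either side of any transcript start. Sequence came from RefSeq GRCm38.p6, and 6 of 6 RefSeq promoters of the genes were identical to the genome read here. Analysis used Python 3.11.15, NumPy 2.4.6, pandas 2.3.3 and pysam 0.24.0, and the interval functions were checked against direct counting on simulated intervals. The genes and lists were chosen with earlier results of these data known, and the body coverage comparison was added after the data were seen. All 8 matched genes are named, and of the other lists the 3 highest and the lowest by mean promoter strength, those without a promoter peak and those with unequal body coverage, the last chosen after their values were seen. With 2 libraries of 1 condition no p-value was computed, and the SD over 2 libraries is a rough estimate of spread.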

Additional observations from a re-analysis of the deposited data

How the results depend on the processing

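The count of effector genes with a promoter peak in both libraries was 7 or 8 under promoter windows of 500 and 2000 bp, the broader list and the strongest 50% of peaks, where Ptgs2 was lost, and in either library alone. Median peak density, 1.13 per 10 kb as a mean of both libraries, was 0.518 in gene bodies alone and 0.474 with 50 kb on each side. It was 1.89 with the broader list and 0.597 with the strongest 50% of peaks. By library, the strongest 50% gave 0.598 in replicate 1 and 0.596 in replicate 2. Replicate 2 stayed higher in gene bodies (0 and 1.04), with 50 kb (0.336 and 0.612) and with the broader list (1.66 and 2.12). It was also higher with peaks within 200 bp joined (0.702 and 1.47). Median promoter strength, 4.16, was 5.01 when promoter peaks were summed. The median footprint count, 13.8, was 4.50 in gene bodies, 23.8 with 50 kb and 8.25 inside stricter peaks. Median coverage, 7.02%, was 3.93% at FDR 0.001, 13.2% in gene bodies and 2.89% with 50 kb. These alternatives change the region or the threshold counted. Leaving out either library, density ranged from 0.773 to 1.48, strength from 4.00 to 4.32, footprints from 13 to 14.5 and coverage from 5.72% to 8.32%. A CRE was at 2 genes, at 1 when it had to lie whole inside a footprint, and at 6 with the core TGACG. It was at 2 with peaks of replicate 1 alone and at 1 with those of replicate 2 alone. Body coverage was at least 2-fold higher in replicate 2 at 3 or 4 genes under all 6 alternatives added after the data were seen. Arc had 1 and 9 stricter peaks with neighbours within 200 bp joined. The number of reads behind each value is not known here. Weak sites near the FDR limit can be listed in one library and missed in the other. The part of either in the differences between the libraries was not tested. At FDR 0.001, body coverage in replicates 1 and 2 was 4.64% and 33.1% at Arc and 5.45% and 30.3% at Npas4. It was 1.12% and 6.16% at Nptx2 and 3.43% and 4.31% at Plk2. No paired analysis was possible because the 2 libraries form 1 group.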
